A study of Mus musculus with 4 samples.

Results

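The complement genes around C3 are described here, 9 of 25393 listed genes, namely C3, C4b, C2, Cfb, Cfi, C1ra, C1s1, Serping1 and C3ar1. They were picked by name because C3 had the highest value of any gene in the control cultures, so the level of C3 is given as a description without a test. Complement is the part of innate immunity in which circulating and locally made proteases cleave one another in a fixed order until C3, the protein on which all routes converge, is split and tags a surface for uptake. The classical route starts with C1q and its proteases C1r and C1s, which cleave C4 and C2; the alternative route uses factor B, and factor I and the C1 inhibitor hold these steps in check. In the brain, astrocytes are known as a source of C3 and other early components, whereas microglia are known for C1q and for the receptors that read the cleavage products.

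RNA-seq had been run on 4 primary astrocyte cultures from cortex and hippocampus of C57BL/6 pups at postnatal day 1, all untreated. There were 2 libraries from wild-type (WT) cultures and 2 labelled as Tet1-/- (KO), a constitutive knockout of Tet1, an enzyme that oxidises 5-methylcytosine in DNA. Each isolation pooled 2 mice, was grown for about 7 days in a flask, was shaken to remove loosely attached cells and was collected 24 h later. A constitutive knockout, by its design, is not restricted to the astrocyte lineage, and nothing in the labels says whether the libraries of a group came from separate litters.

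The libraries held between 18749610 and 22673555 reads on genes, and 3 reads, taken as the lowest usable value, corresponded to 2.70 to 3.21 normalized counts (reads divided by the library's size factor). Tet1 itself (ENSMUSG00000047146, chromosome 10) had 266 and 121 normalized counts in WT against 173 and 463 in the KO-labelled libraries, a log2 difference of 0.66 (SE 0.65, adjusted p = 0.691 by limma with Benjamini-Hochberg). The groups overlapped for Tet1, so the counts, which cover all exons of the gene, did not show the deletion, and the second group is called the KO-labelled libraries throughout. Xist, which is made from the inactive X chromosome of female cells, was at 8.54 and 0.92 normalized counts in WT and at 2896 and 13367 in the KO-labelled libraries, while the sum of 4 Y-linked genes was 3765 and 1909 against 0 and 830. The sex of the pooled pups therefore differed with the label, and sex and label cannot be told apart in this design. All 11 astrocyte markers were detected in every library, with summed FPKM (reads scaled to gene length and library total) of 2048 and 1946 in WT and 3088 and 487 in the KO-labelled libraries. The KO-labelled libraries were also less alike: 28.6% of well-expressed genes differed by more than 2-fold between them, against 10.7% between the WT libraries.

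The 9 genes lie on 4 chromosomes of the mouse genome (GRCm38). C4b, C2 and Cfb sit on the minus strand of chromosome 17 within the major histocompatibility complex, with 85 bases between Cfb and C2, and C3 lies farther along the same chromosome. C1ra and C1s1 are neighbours on opposite strands of chromosome 6, separated by 6901 bases, and C3ar1 is on chromosome 6 as well. Cfi is on chromosome 3 and Serping1 on chromosome 2. RefSeq start sites were found for 4 of the 9 genes, and the 250 bases before 3 of these starts are shown because C3 and C1s1 had the largest differences in level while C3ar1 differed without sharing their motif. Capitals mark matches, on either strand, to the C/EBP consensus TTNNGNAA, the binding motif of a transcription factor family known for acute-phase genes.
C3 (chr17:57228137-57228386, minus strand): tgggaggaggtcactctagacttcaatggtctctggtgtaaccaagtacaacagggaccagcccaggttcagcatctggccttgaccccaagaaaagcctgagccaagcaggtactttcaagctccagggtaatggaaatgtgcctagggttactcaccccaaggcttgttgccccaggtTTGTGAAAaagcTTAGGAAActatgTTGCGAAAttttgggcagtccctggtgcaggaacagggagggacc
C1s1 (chr6:124542360-124542609, minus strand): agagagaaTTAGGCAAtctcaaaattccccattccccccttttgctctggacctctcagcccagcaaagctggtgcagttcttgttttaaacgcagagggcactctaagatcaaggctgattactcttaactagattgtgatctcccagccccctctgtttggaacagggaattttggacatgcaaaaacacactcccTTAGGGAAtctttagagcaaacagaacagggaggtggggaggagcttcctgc
C3ar1 (chr6:122856158-122856407, minus strand): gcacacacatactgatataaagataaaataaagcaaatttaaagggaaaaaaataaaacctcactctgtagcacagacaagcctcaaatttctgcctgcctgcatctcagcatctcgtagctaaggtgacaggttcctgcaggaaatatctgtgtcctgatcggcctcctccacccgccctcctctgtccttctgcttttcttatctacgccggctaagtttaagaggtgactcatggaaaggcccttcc
The C3 window held 3 matches, at 70, 58 and 45 bases before the start. The C1s1 window held matches at 242 and 52 bases, the C1ra window (not shown) at 72 and 29 bases, and the C3ar1 window held none. C1s1 had another RefSeq start site, whose window (not shown) held a single match, at 90 bases. Such a match was present in 36.8% of 32851 windows of the same length, so it is common. The interferon motifs ISRE (TTTCNNTTTC, in 2.98% of windows) and GAS (TTCNNNGAA, in 7.02%) and the kB consensus (in 7.25%) were searched on both strands as well and had no match in the windows of these 4 genes.

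C3 (ENSMUSG00000024164, chr17:57203970-57228136) encodes the central component from which the opsonin C3b and the peptide C3a are cut. Its WT values were 484840 and 436852 normalized counts, against 1783 and 4265 in the KO-labelled libraries. Both WT libraries lay far above both others, and the means were 460846 ± 33933 (SD, n = 2) and 3024 ± 1755 (SD, n = 2), a ratio of 152. C3 was the first gene of both WT libraries by normalized counts, ahead of Igfbp5 at 225710 and 193019, and took 2.42% and 2.10% of all reads on genes. In the KO-labelled libraries it was at place 2915 and 904 and took 0.00805% and 0.0211% of reads. Per length C3 was less extreme: at 4712 and 4074 FPKM it was at place 3 and 2 in WT, where Fth1, which encodes ferritin heavy chain, stood above it in both libraries. The log2 difference was -7.38 (SE 0.51), and the differences between single libraries of each group ran from -8.09 to -6.68. Within the KO-labelled libraries the second had 2.39 times the C3 of the first.

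**Figure D1:**
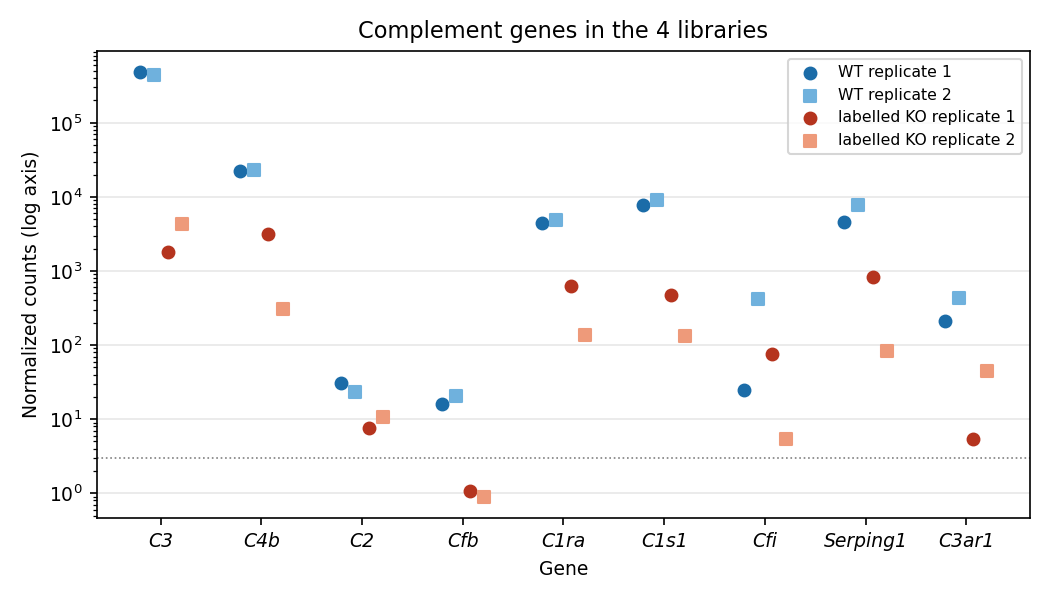
Normalized counts (log axis) of the 9 complement genes in each of the 4 libraries, 1 point a library, WT and labelled KO in separate colours. The dotted line stands at 3 normalized counts. C3 lies near 460846 in WT and at 1783 and 4265 in the KO-labelled libraries, Cfi is the gene whose groups overlap, and Cfb in the KO-labelled libraries lies below the line.

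The classical proteases C1r and C1s are the pair that C1q activates. C1s1 (ENSMUSG00000038521, chr6:124530345-124542359), which encodes the protease that cleaves C4 and C2, had 7779 and 9032 normalized counts in WT against 472 and 132 in the KO-labelled libraries. The groups were far apart, with a ratio of means of 27.9 and a log2 difference of -5.06 (SE 0.62, adjusted p = 0.102 by limma with Benjamini-Hochberg). C1ra (ENSMUSG00000055172, chr6:124512405-124523443), which encodes the protease that activates C1s, had 4474 and 4829 normalized counts in WT against 626 and 139 in the KO-labelled libraries. It too did not overlap, with a ratio of 12.2 and a log2 difference of -3.97 (SE 0.71, limma adjusted p = 0.159). The balance within the pair differed too: C1s1 FPKM was 1.66 and 1.78 times that of C1ra in WT and 0.718 and 0.903 times in the KO-labelled libraries. Both genes share sequence with a copy, 48% of the 50-base windows of the C1ra transcript with C1rb and 24.3% of those of C1s1 with C1s2, so the split of reads between copies is uncertain. The copies were low, C1rb at 27.7 and 39.5 against 3.21 and 1.80 normalized counts and C1s2 at 13.9 and 22.99 against 2.14 and 9.91.

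C4b and C2 encode the substrates of these proteases, which together form the classical C3 convertase, and Cfb encodes the matching subunit of the alternative route. C4b (ENSMUSG00000073418, chr17:34728380-34743882) was the next highest of the 9 genes per length in both WT libraries. It had 22490 and 23019 normalized counts in WT against 3166 and 307 in the KO-labelled libraries, which differed from each other by 10.3-fold. Both were below WT, with a ratio of means of 13.1 and a log2 difference of -4.53 (SE 1.06, limma adjusted p = 0.215). C4b shared 35.2% of its windows with C4a, whose own values were 44.8 and 46.0 against 15.0 and 9.91. C2 (ENSMUSG00000024371, chr17:34862604-34898265) was low throughout, at 30.9 and 22.99 normalized counts in WT against 7.49 and 10.8 in the KO-labelled libraries. The groups did not overlap, with a ratio of 2.95 and a log2 difference of -1.47 (SE 0.67, limma adjusted p = 0.416), the smallest of the 9. Cfb (ENSMUSG00000090231, chr17:34856374-34862518) had 16.0 and 20.2 normalized counts in WT against 1.07 and 0.901 in the KO-labelled libraries, where each value was a single read. In sum 37 reads stood against 2, a ratio of 18.7 with an exact 95% interval of 4.82 to 160 that covers counting error only. The fitted log2 difference was -3.26 (SE 0.72, limma adjusted p = 0.197). C2 and Cfb share 58% and 81.4% of their windows with Gm20547, an annotated gene that overlaps both, so their counts depend on how shared reads were assigned.

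The regulators differed in how far the groups stood apart. Serping1 (ENSMUSG00000023224, chr2:84765387-84775444), which encodes the C1 inhibitor that shuts off C1r and C1s, had 4606 and 7700 normalized counts in WT against 839 and 82.9 in the KO-labelled libraries. The groups were apart but the KO-labelled libraries differed by 10.1-fold, and the log2 difference was -4.49 (SE 1.07, limma adjusted p = 0.218), a ratio of means of 13.3. Cfi (ENSMUSG00000058952, chr3:129835884-129875332), which encodes the protease that inactivates C3b and C4b, had 24.5 and 422 normalized counts in WT against 74.9 and 5.41 in the KO-labelled libraries. It was the single gene of the 9 whose groups overlapped, since the WT libraries themselves differed by 17.2-fold, and its log2 difference of -2.24 (SE 1.72, limma adjusted p = 0.607) was within that spread.

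C3ar1 (ENSMUSG00000040552, chr6:122847138-122856161) encodes the receptor for C3a, which is known mainly from microglia and macrophages. It had 212 and 429 normalized counts in WT against 5.35 and 45.1 in the KO-labelled libraries. All WT values were higher, with a ratio of means of 12.7 and a log2 difference of -4.15 (SE 1.03, limma adjusted p = 0.229). The KO-labelled libraries differed by 8.42-fold.

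Leaving C3 aside, 8 of the 8 other genes had a negative log2 difference, and in 7 of them both KO-labelled libraries lay below both WT libraries, an ordering seen in 25.4% of the 22094 genes tested. At an unadjusted p under 0.05 in limma 6 of the 8 were lower, against 9.18% of all genes tested. After Benjamini-Hochberg adjustment limma and edgeR each called 0 of the 8 and 0% of all genes, whereas 3032 genes (13.7%) had an unadjusted p under 0.05 in limma and 2733 (12.4%) in edgeR. DESeq2 called 1088 genes (4.92%) in all and 5 of the 8 lower, against 3.63% of all genes lower, with adjusted p of 1.82e-10 for C1s1, 4.79e-05 for C1ra, 0.00158 for C4b, 0.00174 for Serping1 and 0.00253 for C3ar1. With all 4 libraries kept, the adjusted p of these 5 ran from 0.0922 to 0.298 over edgeR and all limma settings. The calls therefore rest on the choice of DESeq2. With 2 libraries a group, the smallest two-sided p of an exact permutation test is 0.333. The median log2 difference was -4.15 over the 9 genes and -4.06 without C3, beside -0.07 over all genes tested, whose 5th and 95th percentiles were -2.46 and 1.47. In bulk cultures, fewer cells that make a transcript and less of it per cell cannot be told apart.

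**Figure D2:**
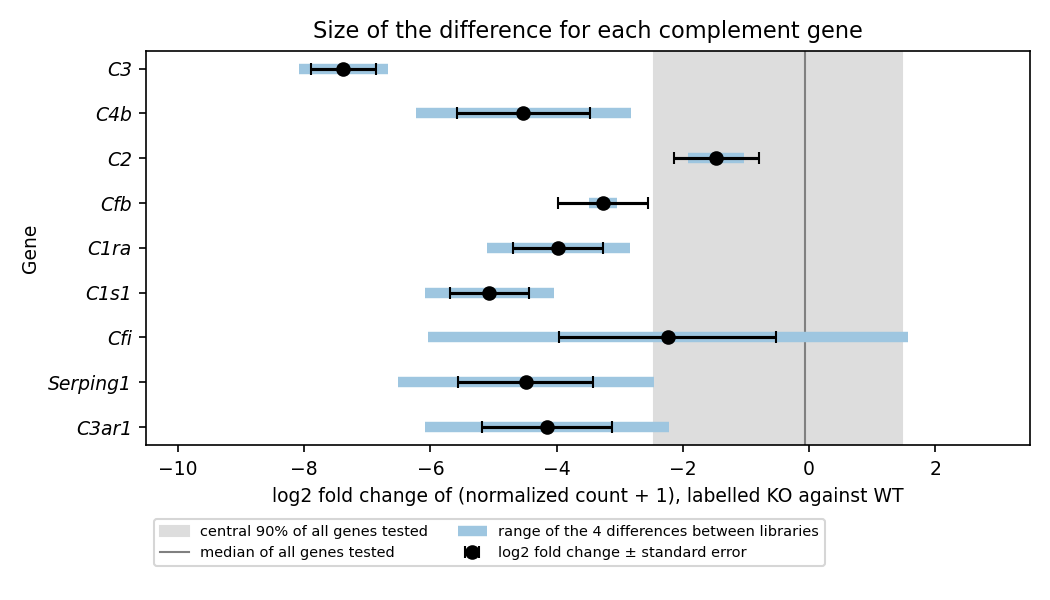
Log2 fold change of (normalized count + 1), labelled KO against WT, for each of the 9 genes from limma (black points, bars of 1 standard error), with blue bars for the range of the 4 differences between single libraries, a grey band for the central 90% of all genes tested and a line at their median. C3 stands farthest from 0 at -7.38, C2 at -1.47 lies inside the band, and the standard error of Cfi, 1.72, is the widest.

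The 9 genes did not keep a fixed proportion in the KO-labelled libraries. Together they took 2.62% and 2.31% of reads in WT and 0.0315% and 0.0247% in the KO-labelled libraries. C3 made up 90.4% and 87.5% of their summed FPKM in WT, and 20.9% and 81.0% in the KO-labelled libraries. In the first KO-labelled library C4b stood above C3 per length, with a C3 to C4b ratio of FPKM of 0.624, whereas the ratio was 15.4 in the second library and 23.9 and 21.01 in WT. C4b, C1ra, C1s1, Serping1 and Cfi were higher in the first KO-labelled library, whereas C3, C3ar1 and C2 were higher in the second. Gfap, the astrocyte intermediate filament, was at 687 and 765 FPKM in WT and at 1871 and 117 in the KO-labelled libraries, so it was highest in the library with the lowest C3. C3 was low in both of these libraries, and the part of astrocyte content in the level of C3 or of the other genes was not tested.

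By the distance between log2 profiles, each centred on its own mean over the 4 libraries, the gene most like C3 among 12868 genes was Serpina3i at 0.483, followed by Gm4951 at 0.553, Apol9b at 0.736, Ifit1 at 0.740 and Iigp1 at 0.748. Ifit1 had 3426 and 1534 normalized counts in WT against 8.56 and 60.4 in the KO-labelled libraries, and Iigp1 had 817 and 703 against 6.42 and 20.7. Ifit1, Iigp1 and Apol9b are known as genes that interferon induces. Of the 8 other complement genes C1s1 was nearest to C3 at 1.60, which placed it at 104 of 22093 genes, and C3ar1 followed at 1.76. C2 at 2.97 and Cfi at 3.43 were the farthest. These distances describe 4 libraries that share the same 2 groups and were not tested.

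The rest of the pathway was measured by a list of 53 further complement genes, of which 36 were listed in the data and 34 were tested. In limma 29 had a negative and 5 a positive log2 difference. Wholly below WT lay 24 and wholly above 3, against 25.4% and 22.5% of all genes. At an unadjusted p under 0.05, 17 were lower and 3 higher, against 9.18% and 4.54% of all genes. After adjustment 0 passed in limma or edgeR, and DESeq2 called 10 lower and 2 higher, against 3.63% and 1.29% of all genes. Their median log2 difference was -1.83, and -1.69 over 33 genes with Cpn1, at 0 in both KO-labelled libraries, set at its bound and C5ar2, at or near the lowest usable value throughout, left out. The other 17 genes of the list were not analysed here.

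The 3 chains of C1q, the recognition molecule that microglia are known to make, were low in the same libraries as the proteases. C1qa had 268 and 442 normalized counts in WT against 33.2 and 5.41 in the KO-labelled libraries, a log2 difference of -4.54. C1qb had 202 and 460 against 37.5 and 15.3, and C1qc had 198 and 375 against 30.0 and 7.21. Each chain was lower in both KO-labelled libraries, and DESeq2 called each lower. Among the receptors all 5 tested were wholly below WT, against 25.4% of all genes. DESeq2, which called 3.63% of all genes lower, called C5ar1, the receptor for C5a, and Itgam and Itgb2, the chains of complement receptor 3. Hc, which encodes C5, was less separated, with 398 and 541 normalized counts in WT against 394 and 38.8 in the KO-labelled libraries. Cfp, which encodes properdin, the stabiliser of the alternative convertase, had 213 and 348 against 67.4 and 83.8.

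Masp1, which encodes a protease of the lectin route, was the clearest gene in the other direction. It had 242 and 290 normalized counts in WT against 1134 and 985 in the KO-labelled libraries, with a log2 difference of 1.99 (SE 0.31, adjusted p = 0.140 in limma and 3.15e-04 in DESeq2). Csmd2, which encodes a membrane protein with complement control repeats, had 246 and 322 against 724 and 1219, and Cr1l, which encodes the membrane regulator Crry, had 691 and 647 against 1155 and 1268. All 3 lay wholly above WT. Clu, which encodes clusterin, an abundant astrocyte protein that also restrains the membrane attack complex, had 94083 and 106131 against 46166 and 8627. Of the 13 regulators tested 10 had a negative log2 difference, with a median of -1.01, compared with -2.70 over the 5 receptors and -2.29 over the 7 recognition genes.

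**Figure D3:**
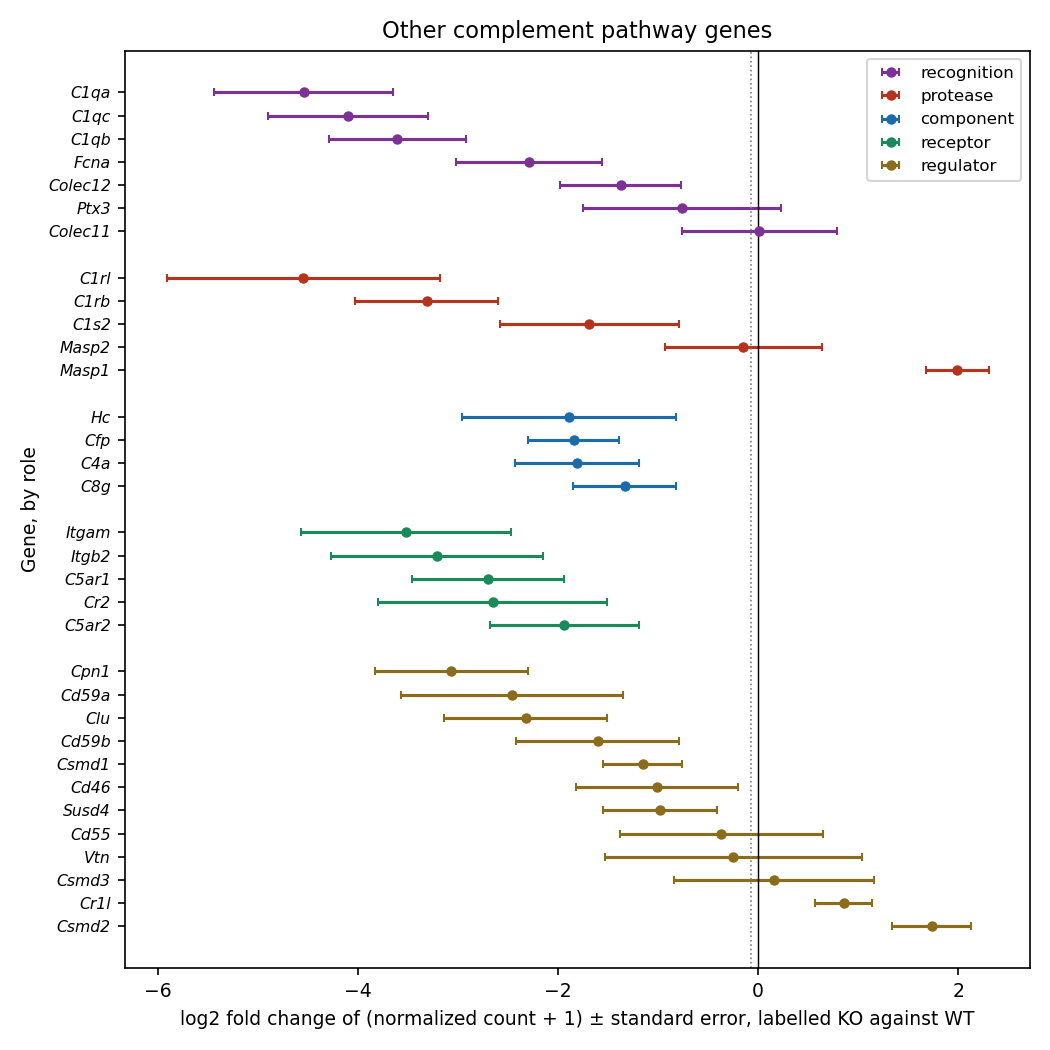
Log2 fold change of (normalized count + 1), labelled KO against WT, of 33 of the 34 further complement genes tested, with bars of 1 standard error, coloured and grouped by role, the dotted line being the median of all genes tested. Most points lie below 0, with the receptors around a median of -2.70 and the regulators around -1.01, and Masp1 at 1.99 is the highest.

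Markers of other cells differed between the same libraries. Of 13 microglia and macrophage markers tested all 13 had a negative log2 difference and 12 lay wholly below WT, against 25.4% of all genes. Their median was -2.96, with summed FPKM of 61.0 and 101 in WT and 24.8 and 16.7 in the KO-labelled libraries. Cx3cr1 had 112 and 349 normalized counts in WT against 23.5 and 11.7 in the KO-labelled libraries. P2ry12 was low throughout, at 6.40 and 4.60 in WT against 0 and 0.901. The summed markers were thus lower by 3.89-fold, beside a ratio of 12.7 for C3ar1 and of 152 for C3, and the part of microglia in the lower C3ar1, C1q and receptor values was not tested. In limma the 5 neuronal markers tested all had a positive difference, with a median of 1.80 at summed FPKM between 8.86 and 22.6. Mural cell markers summed to 80.3 and 270 FPKM in WT and 589 and 1412 in the KO-labelled libraries. Most of this sum was Acta2, at 55.6 and 240 FPKM in WT against 564 and 1395. The median difference of the 5 mural genes was -0.53, with 3 negative and 2 positive. The median was 0.13 over 7 meningeal fibroblast markers, -0.05 over 5 endothelial markers and -0.71 over 8 oligodendrocyte lineage markers, while Alas2, the marker tested for blood, was at -1.21. The astrocyte markers had 6 of 11 wholly below WT and 1 wholly above, against 25.4% and 22.5% of all genes. Their median was -0.78, and it was -1.97 without the first KO-labelled library and -0.26 without the second.

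A further 10 genes are known to be raised together with C3 and Serping1 in astrocytes exposed to inflammatory microglia. Of these, 9 had a negative log2 difference, against 11857 of the 22094 genes tested. Wholly below WT lay 7, against 25.4% of all genes. DESeq2 called 6 of them lower (3.63% of all genes), and limma and edgeR called 0. At an unadjusted p under 0.05 in limma 7 were lower (9.18% of all genes). Their median was -3.04, within a range of -5.90 to 1.08. The summed FPKM of this list was 469 and 500 in WT and 88.5 and 105 in the KO-labelled libraries.

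**Figure D4:**
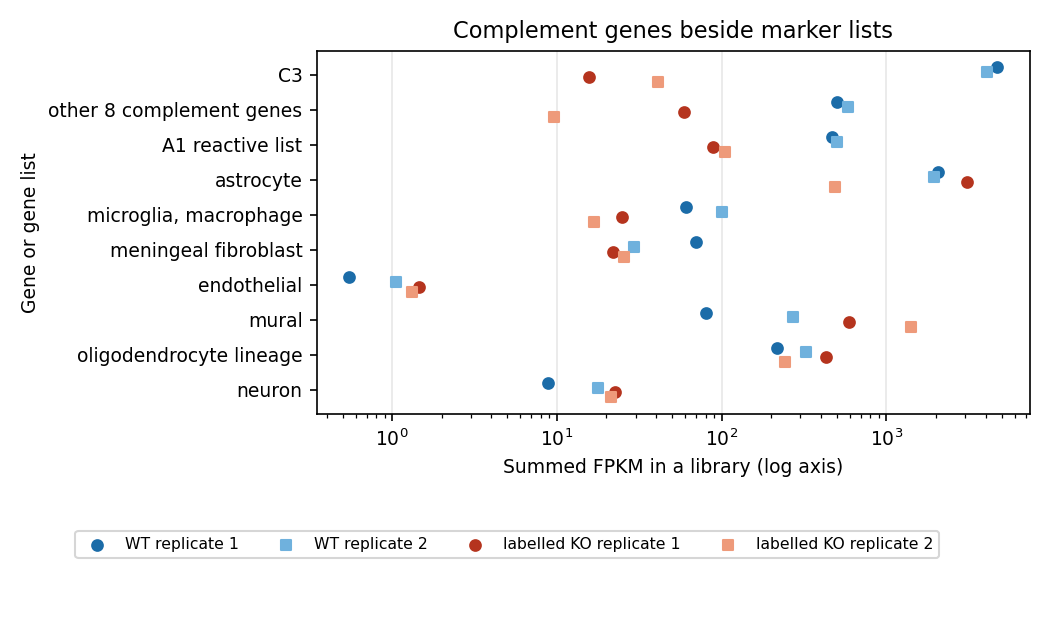
Summed FPKM (log axis) in each of the 4 libraries for C3, the other 8 complement genes, the reactive astrocyte list and the cell type marker lists, with 1 point a library and WT in blue, labelled KO in red. The other 8 complement genes sum to 499 and 583 FPKM in WT and to 59.3 and 9.62 in the KO-labelled libraries, and the microglia and macrophage markers to 61.0 and 101 against 24.8 and 16.7.

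The lower levels of the chromosome 17 cluster did not extend to its neighbours as a block. Of 18 genes tested within 100 kb of C4b, C2 or Cfb, 5 lay wholly below and 4 wholly above WT, with a median log2 difference of -0.09. Over all genes tested 25.4% lay wholly below and 22.5% wholly above. Near C3, 5 of 5 genes lay wholly below WT, by unequal amounts. Vav1, a signalling gene of blood-derived cells, was at 67.2 and 174 against 4.28 and 16.2 normalized counts, Cd70 at 23.5 and 29.4 against 0 and 3.61, and Tnfsf14 at 17.1 and 11.95 against 0 in both KO-labelled libraries. Gpr108 and Trip10 barely differed, with log2 differences of -0.36 and -0.22. Around C1ra and C1s1, 4 of 5 lay wholly below. These were C1rl, a C1r-like protease gene, at 474 and 470 normalized counts against 87.8 and 3.61, Clstn3 at 171 and 312 against 18.2 and 10.8, and the copies C1rb and C1s2. Reads of the copies may be shared with C1ra and C1s1. C1rl, C1rb and C1s2, and C4a near C4b, were also counted in the list of further complement genes, so these counts are not separate. Over the 50 neighbours of all 9 genes, 23 were wholly below and 11 wholly above WT, with a median of -0.30.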

How the data were processed

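Libraries of total RNA from 4 cultures, 2 WT and 2 labelled Tet1 KO, had been sequenced by the authors. Per the labels the genome build was mm10; the aligner, the counting program and whether counting used strand are not given in the sources used here. The deposited table is headed FPKM, but its values are a signal of reads divided by a size factor per library: multiplied by that factor, 100% of values were whole within 0.001. They are called normalized counts, and reads were recovered from them. Further columns hold the authors' group means, fold changes and p-values and were not used. FPKM were computed from recovered reads, the table's gene length and the reads on genes.

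Of 25393 genes, 22094 with a mean of at least 1 normalized count were tested with limma 3.58.1 (R 4.3.3, variance trend) on log2(value + 1), which understates the differences of low genes. P-values were adjusted by Benjamini-Hochberg over all genes tested, at a threshold of 0.05. They measure only the spread between these libraries, which may be technical. The recovered reads were tested with edgeR 4.0.16 (quasi-likelihood) and DESeq2 1.42.0 as alternatives. The main limma, edgeR and DESeq2 fits were also run on simulated data, drawn with the same spread in both groups, unlike these libraries. The other alternatives were not. The other alternatives were a pseudocount of 0.1, no filter, a mean of at least 10, scaling to equal sums, quantile normalization, no variance trend, a replicate block and leaving out each library.

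The 9 genes and all lists were chosen with earlier results of these data known. The complement genes were all nameable by role, the reactive astrocyte list was given by counts, and the 5 genes most like C3 were those of smallest root mean square distance among genes with a mean of at least 50. Depth limits the precision of Cfb and C2, and the interval given covers counting error only. GENCODE M21 positions and RefSeq start sites (GRCm38.p6) were used; start sites of 5 genes were not used here. Protein sequences were not analysed here. The values of 1 gene of the complement list are not reported here, though its counts stay in the totals.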

Additional observations from a re-analysis of the deposited data

How the results depend on the processing

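The log2 difference of each of the 9 genes was negative in 116 of 116 values over 13 alternatives, and Cfb could not be tested at a mean of at least 10. C3 is among the 9 though its WT level chose it. For the 8 genes whose groups did not overlap, leaving out a library cannot change the sign. The other settings refit the same 4 libraries, so the tally is a description. DESeq2 called C4b (-3.71), C1ra (-3.60), C1s1 (-4.80), Serping1 (-3.74) and C3ar1 (-3.66), and 1088 genes in all, against 0 in limma and edgeR; the cause was not tested. The median over the 9 genes was -5.06 to -2.89 when 1 library was left out, with -2.89 without the second KO-labelled library. Otherwise it was -4.32 to -3.71, where -4.32 came from a mean of at least 10, which left Cfb out. The genes at an unadjusted p under 0.05 numbered 862 to 3026 lower (862 and 897 without the first and second WT library) and 273 to 1820 higher (273 and 483 without those, 1820 without the first KO-labelled library), where fewer libraries entered. Leaving out 1 library gave meningeal fibroblast medians of -0.89 to 0.44, with -0.89 without the first WT library, -0.26 without the second and -0.18 without the second labelled KO, and oligodendrocyte lineage medians of -1.66 to -0.17, with -1.66 without the first WT library. The astrocyte median ran from -1.97 to -0.26, the mural median from -1.12 without the first KO-labelled library to 0.04 without the second, and the endothelial median from -0.61 without the first WT library to 0.51 without the second. Alas2 was at -2.74 with a pseudocount of 0.1, -2.20 in edgeR and -2.43 in DESeq2. The median of all genes was -0.11 with equal sums and 0.06 with quantile normalization. The replicate block called 0 genes, with 1821 lower and 762 higher at an unadjusted p under 0.05. Libraries with the same number did not deviate together (correlation -0.08). This value cannot exclude that the numbers mark a shared isolation, which the labels do not give. Leaving out 1 library leaves a lone library in its group, which limma then assumes to vary like the other group.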
